A study of Mus musculus with 8 samples.

Results

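The mouse Ly6 genes Ly6a, Ly6c1 and Ly6c2 and the paired Sectm1 genes Sectm1a and Sectm1b were followed in a comparison of mammary epithelial cells with and without the ISG15-activating enzyme. These 5 genes were selected on their presence in the authors' deposited table, that is, on the log2 fold changes and adjusted p-values described here, so those values are given as a description and not as a test. They are 5 of the 259 genes in that table. All cells were of the FVB strain, were labelled PyVmT and carried a Uba7 knockout. One arm (Ctrl) received an empty vector and the other received UBE1L, the enzyme encoded by Uba7. Every library of both arms also had IFN, with which the table's title says the cells were primed, and LPS at 100 ng/mL for 6 hours. Each arm has 2 libraries by its labels, of 8 libraries in the series, and whether these came from separate cultures is not stated, so the p-values may reflect technical spread. Cells with intact Uba7 are not among the labelled groups, and neither the number of clones per vector nor the type and dose of IFN is stated. For each gene the authors' deposited table holds a fold change of UBE1L over Ctrl, taken here as log2, with a mean abundance, a likelihood ratio, p and adjusted p. It holds nothing per library, so no spread between libraries can be shown.

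Ly6 proteins are small, cysteine-rich proteins held on the outer face of the cell membrane by a glycosylphosphatidylinositol (GPI) anchor, and many of their genes sit in a cluster and respond to interferon. Ly6a encodes Sca-1, used to sort stem and progenitor cells in blood and other tissues, including the mammary gland, and Ly6C, encoded by Ly6c1 and Ly6c2, is used to sort monocytes. Sectm1 proteins are immunoglobulin-domain membrane or secreted proteins that act on lymphocytes. The protein K12, listed in RefSeq as a synonym of Sectm1b, is known as a ligand of CD7, and mouse Sectm1a has been described as binding GITR (Tnfrsf18). UBE1L starts the attachment of ISG15, itself an interferon-induced protein, to other proteins.

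The coding sequences show how far short reads could separate the 3 Ly6 transcripts. The first 300 coding bases of the principal Ly6c1 and Ly6c2 transcripts (GENCODE M21, GRCm38, chromosome 15, minus strand, written 5′ to 3′ from the start codon) are shown because reads from most of this region fit both genes. Capitals mark bases that differ between Ly6c1 and Ly6c2.
Ly6c1: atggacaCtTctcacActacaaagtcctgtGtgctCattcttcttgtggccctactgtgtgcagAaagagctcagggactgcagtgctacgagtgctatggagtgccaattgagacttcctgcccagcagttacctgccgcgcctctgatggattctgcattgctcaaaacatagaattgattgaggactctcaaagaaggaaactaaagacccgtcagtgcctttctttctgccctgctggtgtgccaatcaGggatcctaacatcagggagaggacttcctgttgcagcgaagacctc
Ly6c2: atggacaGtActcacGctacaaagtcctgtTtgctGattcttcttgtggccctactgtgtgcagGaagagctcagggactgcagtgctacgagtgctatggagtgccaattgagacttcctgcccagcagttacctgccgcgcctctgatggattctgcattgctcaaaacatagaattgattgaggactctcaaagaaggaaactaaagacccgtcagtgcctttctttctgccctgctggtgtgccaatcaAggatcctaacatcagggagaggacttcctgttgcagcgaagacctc
The first 120 coding bases of Ly6a follow, with capitals where Ly6a differs from Ly6c1.
Ly6a: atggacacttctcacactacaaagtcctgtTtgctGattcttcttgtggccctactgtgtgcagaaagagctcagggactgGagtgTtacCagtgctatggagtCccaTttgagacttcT
Of 393 coding bases, 9 differ between Ly6c1 and Ly6c2, and 6 of these 9 lie in the first 65 bases. The next difference lies at base 254, and 2 more follow after base 300. In the first 120 bases Ly6a differs from Ly6c1 at 8 positions and from Ly6c2 at 10, and at 2 of the 8 it carries the Ly6c2 base. The translated proteins of 131 residues were 94.7% identical between Ly6c1 and Ly6c2, with 7 residues that differ. Ly6a (134 residues) was 67.2% identical to Ly6c1 and 64.9% identical to Ly6c2. The Sectm1 proteins, of 192 (Sectm1a) and 212 residues (Sectm1b), were 35.2% identical over their alignment.

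Each of the 5 genes had a higher level in the UBE1L arm by the authors' deposited table, from 1.66-fold to 2.30-fold. Of all genes listed there, 83.8% were higher, and since the 5 were chosen from this contrast nothing is read from their shared direction. The median log2 fold change was 0.84 over the 5 genes and 0.72 over all 217 higher genes in the authors' deposited table. Since bulk RNA was measured, more cells that express a gene and more RNA per cell cannot be told apart.

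Ly6a, encoding Sca-1, was the most abundant of the 5. Its mean abundance was 8.82 log2 CPM (CPM scales each library's counts to a common total; the header does not name the libraries averaged), the 4th highest of the 259 genes in the authors' deposited table. Its log2 fold change was 0.73 in the authors' deposited table, a 1.66-fold higher level with UBE1L; its likelihood ratio was 150 and its deposited adjusted p 1.62e-31. The table holds no standard error. Dividing the fold by the square root of the likelihood ratio gives an approximate standard error of 0.0598 log2 units and an approximate 95% interval of 0.62 to 0.85.

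Ly6c1, the next gene along the chromosome, had the lowest p of the 5 and the 2nd lowest in the authors' deposited table. Its log2 fold change there was 0.86 (1.82-fold) at a mean abundance of 6.56 log2 CPM, with a likelihood ratio of 217 and a deposited adjusted p of 1.47e-45. The approximate standard error was 0.0587, and the interval ran from 0.75 to 0.98. Of the 8 other listed genes within 0.5 log2 CPM of it, 8 had a smaller absolute fold and 0 had a smaller approximate standard error.

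Ly6c2, its near-copy, had almost the same fold and the least certain value of the 5. The authors' deposited table gives a log2 fold change of 0.84 (1.79-fold), a mean abundance of 1.15 log2 CPM, a likelihood ratio of 6.02, p of 0.0142 and a deposited adjusted p of 0.0417, close to the largest one listed (0.0498). A further 13 listed genes had a larger p. The approximate standard error was 0.343, with an interval of 0.17 to 1.51. With that error a log2 fold of 0.81 was needed to reach the smallest likelihood ratio in the authors' deposited table (5.58), and Ly6c2 stood 0.03 above it, so a fold below about this size would not have been listed. Among the 29 listed genes within 0.5 log2 CPM, 3 had a smaller absolute fold.

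Sectm1b had the largest fold of the 5. The authors' deposited table puts its log2 fold change at 1.20, a 2.30-fold higher level with UBE1L, at a mean abundance of 1.74 log2 CPM, with a likelihood ratio of 16.1 and a deposited adjusted p of 0.000605. The approximate interval, 0.61 to 1.79, was wide, at an approximate standard error of 0.299. It was the 1 gene of the 5 with a log2 fold of at least 1, which 22.8% of the listed genes reached.

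Sectm1a, its neighbour, had a log2 fold change of 0.78 (1.72-fold) by the authors' deposited table, which puts its mean abundance at 2.70 log2 CPM. The authors' deposited table gives it a likelihood ratio of 14.5 and a deposited adjusted p of 0.00123, from which follow an approximate standard error of 0.206 and an interval of 0.38 to 1.19. Both Sectm1 genes lay below 2.95 log2 CPM, the median over the authors' deposited table, and between Ly6c2 and the abundant Ly6 pair in precision.

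**Figure D1:**
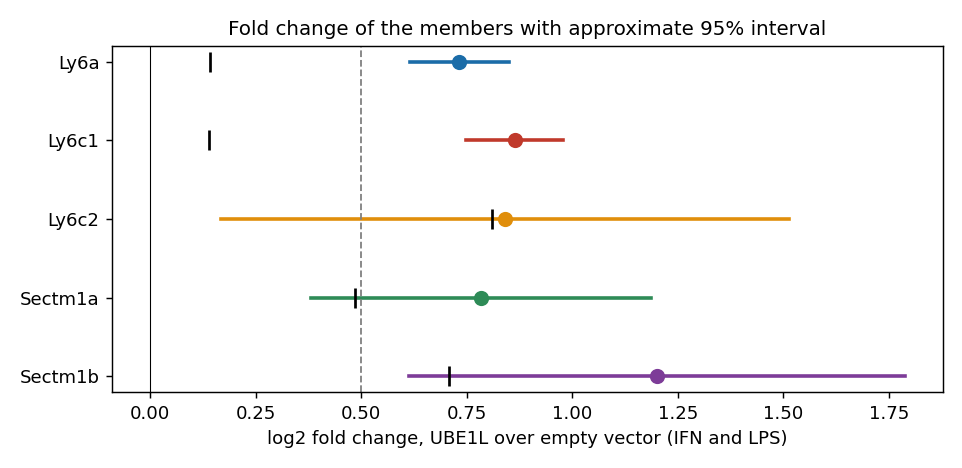
Log2 fold change of UBE1L over empty vector (x axis, log2 units) for each of the 5 genes, from the authors' deposited table, with an approximate 95% interval derived from the likelihood ratio (bars). The dashed line is the smallest absolute fold listed (0.50), and each black tick is the fold that gene's error required to reach the smallest listed likelihood ratio; the tick lies just left of the point for Ly6c2 and far left for Ly6a and Ly6c1.

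The sizes of change could not be separated within either family. Sectm1b exceeded Sectm1a by 0.42 log2 units, with an approximate 95% interval of -0.29 to 1.13 that treats the errors of the genes as independent. With their errors, Sectm1b needed a log2 fold of 0.71 to reach the smallest listed likelihood ratio, and Sectm1a 0.49. The difference between Ly6c1 and Ly6a was 0.13 (-0.03 to 0.30), that between Ly6c2 and Ly6a was 0.11 (-0.57 to 0.79), and that between Ly6c1 and Ly6c2 was 0.02 (-0.66 to 0.70). None of the 10 pairs among the 5 genes had an interval that excluded 0. The intervals of every pair with Ly6c2 or Sectm1b still allowed differences of 0.70 log2 units or more, so the genes are not shown to respond alike.

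Mean abundance differed widely among the 5 genes. Divided by the length of the longest protein-coding transcript, the mean level was 475 CPM per kilobase for Ly6a (955 bases) and 112 for Ly6c1 (844 bases). It was 3.83 for Sectm1a (1692 bases), 2.70 for Ly6c2 (822 bases) and 1.46 CPM per kilobase for Sectm1b (2287 bases). Ly6a was thus 4.24 times as abundant as Ly6c1 per length, and Ly6c1 41.4 times as abundant as Ly6c2. With the median in place of the longest transcript length, an alternative chosen after seeing the data, Sectm1b came to 3.11 CPM per kilobase, 2.13 times as much, and Ly6c1 to 175, 1.56 times as much. Sectm1a then came to 5.58 and Ly6c2 to 3.48 CPM per kilobase. The abundances carry no spread, so whether the 3 low genes differ in level is not known. The log2 fold changes spanned 0.47 log2 units. Genes under the limit of 0.50 on absolute fold could not be among the 5, so the spans of fold and abundance are not compared.

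Errors were smaller at higher abundance, among the 5 and in most listed genes, except that Ly6a and Ly6c1 had nearly equal errors. The approximate standard errors of the 5 genes spanned 5.84-fold, with Ly6c1 and Ly6a ranking 3rd and 5th smallest of 259, Sectm1a 158th, Sectm1b 209th and Ly6c2 225th. Within 0.5 log2 CPM of each gene, the median approximate standard error of other listed genes was 0.0686 for Ly6a, 0.0685 for Ly6c1, 0.361 for Ly6c2, 0.202 for Sectm1a and 0.291 for Sectm1b. An adjusted p under 0.01 was met, by the authors' deposited table, by 4 of the 5 genes, all but Ly6c2, against 68.3% of the listed genes. A Bonferroni threshold over 6414 tests, a number inferred from the deposited p-values, was met by 2 of the 5, Ly6a and Ly6c1, against 40.2%. As the choice of the 5 used these values, nothing is read from either share. Ranked by p over all tests, as inferred in the same way, Sectm1b stood at 639, Sectm1a at 723 and Ly6c2 at 2178.

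**Figure D2:**
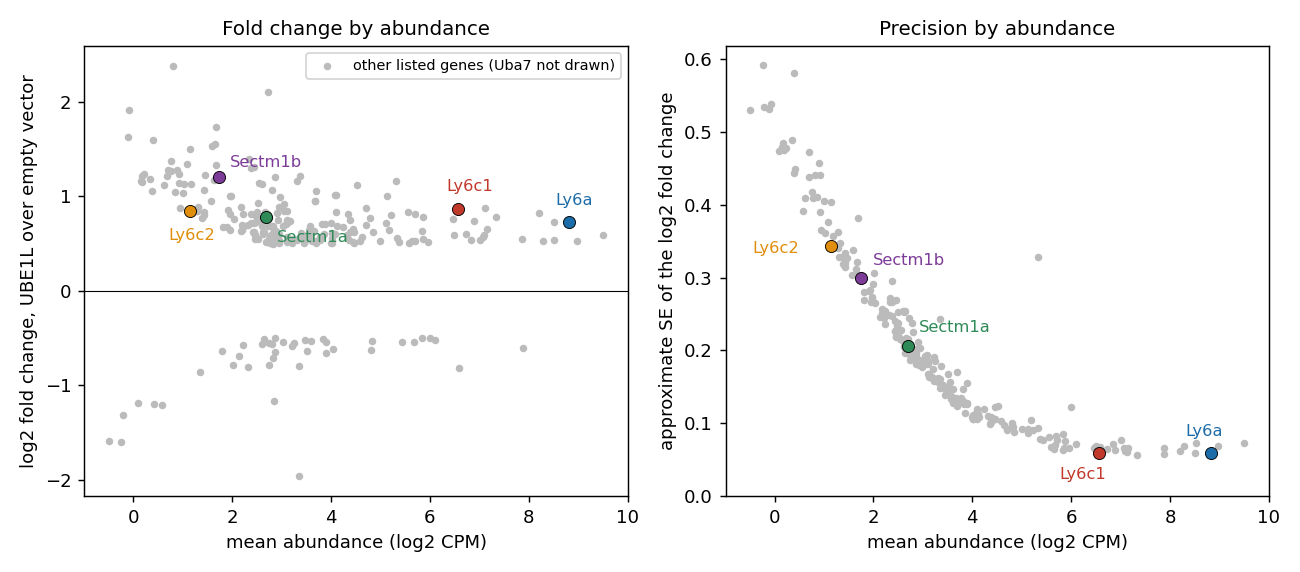
Left, log2 fold change against mean abundance (log2 CPM) for the genes of the authors' deposited table; right, the approximate standard error of that fold against the same abundance. Coloured points are the 5 genes and grey points the other listed genes, with Uba7 left out because its log2 fold of 5.72 would compress the axis; the 5 genes lie on the band formed by the others in the right panel.

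The closest listed genes show what surrounds each member in the authors' deposited table. In abundance, Ly6c2 was nearest to the chemokine-binding receptor gene Ccrl2, which rose by 1.50 log2 units, and Sectm1b to the calcium channel gene Trpv6, which rose by 1.33, both by the authors' deposited table. Ly6c1 was nearest in abundance to the keratin gene Krt6a, which fell by 0.82 on the log2 scale, Ly6a to the noncoding RNA gene Neat1 (0.53) and Sectm1a to the acyl-CoA synthetase family gene Acsf2 (0.51), in the authors' deposited table. In fold, the nearest genes were the itaconate-producing enzyme gene Acod1 for Ly6c1 (0.87), Tnfrsf11b, the decoy receptor osteoprotegerin, for Ly6a (0.73) and the proton pump subunit gene Atp6v1b1 for Ly6c2 (0.84), in the authors' deposited table. The stress-induced nuclear protein gene Nupr1 (0.78) was nearest in fold to Sectm1a, and the Schlafen gene Slfn4 (1.20) to Sectm1b, in the authors' deposited table. These are likenesses in 1 value from a single comparison, since no pattern across libraries could be compared.

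The Ly6 genes share transcript sequence with other genes, and the Sectm1 genes do not at the lengths searched. Reads were single and 50 bases long, so each gene's distinct 50-base stretches in GENCODE M21 transcripts were looked up in the transcripts of all other genes. None of the 1833 stretches of Sectm1a and none of the 2797 of Sectm1b occurred in another gene. For Ly6c1, 578 of 1764 stretches (32.8%) did, 379 of them in Ly6c2 and 195 in Ly6a. For Ly6a the share was 19.0% (246 of 1297), mainly with Ly6c1 and with small parts shared with Ly6i (31) and I830127L07Rik (20), a RefSeq synonym of Ly6a2. Ly6c2 shared 14.4% (393 of 2733) when its retained-intron transcript was included and 31.2% (255 of 817) over protein-coding transcripts alone. The stretches common to Ly6c1 and Ly6c2 are 21.5% of those of Ly6c1 and 13.9% of those of Ly6c2.

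**Figure D3:**
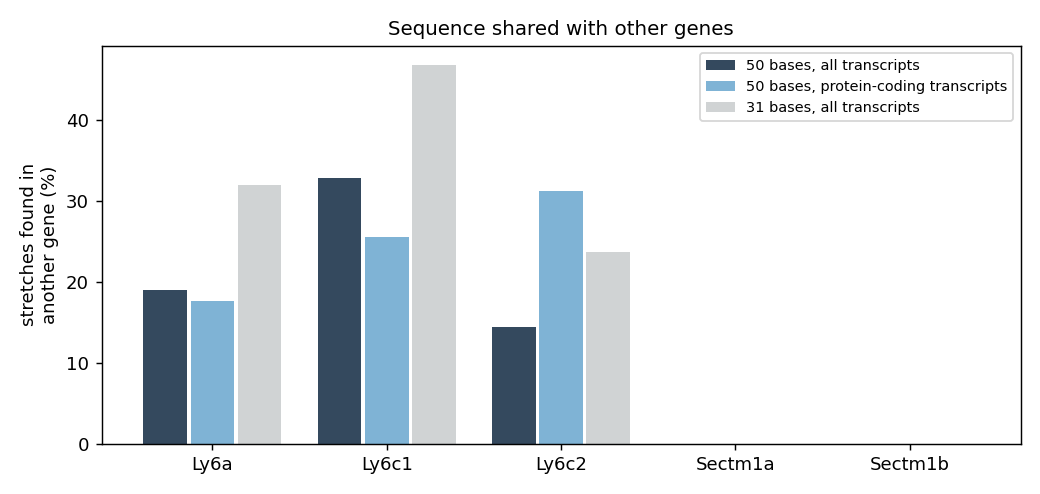
Percentage of each gene's distinct stretches (y axis) that also occur in transcripts of another gene on the same strand, for 50-base stretches in all transcripts, 50-base stretches in protein-coding transcripts and 31-base stretches. Ly6c1 is highest at 32.8% in all transcripts, Ly6c2 is highest at 31.2% in protein-coding transcripts, and both Sectm1 genes are at 0 in each setting.

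In the principal transcripts, identical runs of 50 bases or more numbered 5 and covered 497 of the 844 bases of Ly6c1 and 497 of the 822 bases of Ly6c2. The longest run was 188 bases and lay within the coding sequence, as the aligned bases above show between the 6 early differences and the one at base 254. Within the coding sequence 47.1% of 50-base stretches were common to both genes. Ly6a and Ly6c1 shared 40 stretches of their principal transcripts, none of them wholly within the coding sequence. Stretches that lie partly in the coding sequence were not counted apart. Before length is considered, the mean CPM of Ly6c2 was 2.35% of that of Ly6c1. Salmon, named in the submitters' processing notes, divides reads that fit several transcripts among them, so both values are uncertain. How much of the Ly6c2 value comes from Ly6c1 reads was not tested. The annotation used describes C57BL/6J, while the cells were FVB, and strain differences in these genes were not tested.

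**Figure D4:**
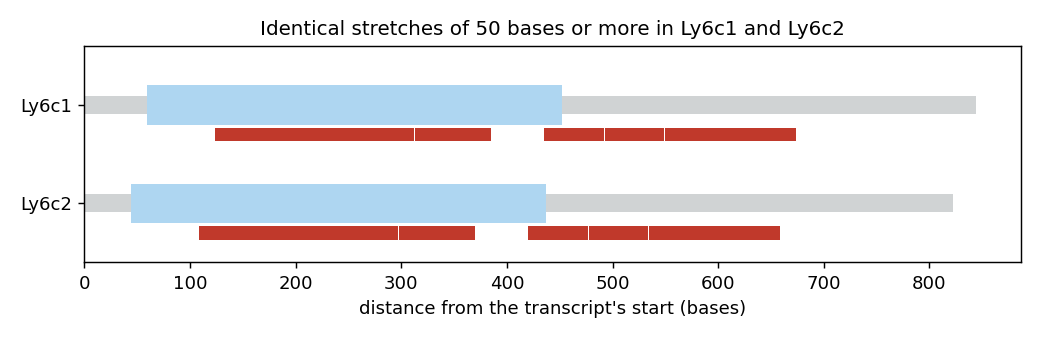
Principal Ly6c1 (844 bases) and Ly6c2 (822 bases) transcripts drawn to scale by distance from the transcript start, with the coding sequence as the wide blue bar and untranslated parts in grey. Red bars mark the 5 runs of at least 50 bases identical in both genes; none covers the first part of the coding sequence, where 6 of the 9 coding differences lie.

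Around the start, Ly6c1 and Ly6c2 were less alike than in their coding bases. RefSeq (GRCm38.p6) promoter windows, from 250 bases before to 50 after a start, were matched by symbol for 3 of the 5 genes: Ly6c1 and Ly6c2 with 2 windows each and Sectm1b with 1. Ly6a and Sectm1a had no window matched. The pair had nearly the same listed fold, with an interval of -0.66 to 0.70 for the difference, and shared regulation was not tested. The best-aligned windows are shown. They are Ly6c1 at chr15:75048788-75049087 and Ly6c2 at chr15:75111922-75112221, both on the minus strand, with capitals where the aligned windows differ or have a gap.
Ly6c1: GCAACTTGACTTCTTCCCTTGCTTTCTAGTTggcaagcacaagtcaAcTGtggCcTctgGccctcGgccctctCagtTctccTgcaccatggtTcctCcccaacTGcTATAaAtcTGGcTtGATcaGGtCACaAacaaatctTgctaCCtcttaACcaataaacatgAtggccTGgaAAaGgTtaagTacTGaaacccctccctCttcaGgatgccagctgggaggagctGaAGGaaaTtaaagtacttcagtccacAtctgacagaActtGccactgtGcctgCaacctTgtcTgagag
Ly6c2: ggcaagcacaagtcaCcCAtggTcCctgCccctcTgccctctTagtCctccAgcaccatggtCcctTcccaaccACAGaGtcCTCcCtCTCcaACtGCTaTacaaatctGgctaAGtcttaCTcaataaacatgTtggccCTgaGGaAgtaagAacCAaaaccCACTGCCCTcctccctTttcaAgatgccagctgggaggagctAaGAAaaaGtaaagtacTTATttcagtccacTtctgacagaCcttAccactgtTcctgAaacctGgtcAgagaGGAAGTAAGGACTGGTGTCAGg
Identity was 78.2% over the aligned bases and 62.3% over all 334 columns, which count gaps and the overhanging ends of the offset windows as differences. The other pairs of windows, with lower alignment scores, had 53.2% to 88.4% identity over their aligned bases. The coding bases, aligned without gaps, were 97.7% identical. The letters GAAANNGAA (core of the interferon-stimulated response element), TTCNNNGAA (gamma-activated site) and GGANTTTCC (NF-kB core) were searched on both strands. None of the 5 windows held an exact match to any of them, while 8.56%, 8.30% and 1.25% of all 32851 windows did. This says only that these letters are not in these windows.

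Along chromosome 15, Ly6a and Ly6c1 are next to each other in RefSeq order and Ly6c2 follows after a pseudogene and a long noncoding RNA gene. The flanking Ly6 genes include Ly6e and Ly6i on one side and Ly6a2, Ly6g, Ly6g2 and Ly6f on the other. On chromosome 11, Sectm1b and Sectm1a are adjacent, and Cd7, which encodes the K12 receptor, lies 2 places from Sectm1b. Within 10 genes on either side of the 5 members there were 42 other genes, 21 of them protein-coding, and 0 of the 42 are in the authors' deposited table. A gene outside that table may be untested, or may have missed the limit on fold or on p, so its absence does not show that it kept its level. By the inferred number of tests, at most 4.04% of the tested genes were listed, so nothing is read from the 0 of 42.

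The wider family was mostly not listed. Of 43 genes of the Ly6 and uPAR domain family, 3 (6.98%) are in the authors' deposited table, all higher, and they are the 3 members. The adjusted p-values imply at least 6414 tested genes, so at most 4.04% of the tested genes were listed. They also give the listed gene with the largest p a rank of 2342 over all tests. The p limit alone was thus met by far more genes than are listed. How many of the 43 were tested is not known, and the members were chosen from this contrast, so nothing is read from the family's share. Ly6e, Ly6d, Plaur (the urokinase receptor) and Cd59a (a complement inhibitor) are among those not listed. Of the Sectm1 genes and their partners Cd7 and Tnfrsf18, the 2 Sectm1 genes are listed and the 2 partners are not.

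Of 40 other GPI-anchored surface protein genes, 3 (7.50%) are in the authors' deposited table and all 3 are higher, as 83.8% of its genes are. How many of the 40 were tested is not known, so nothing is read from this share. They were Reck, a membrane inhibitor of matrix proteases, at 0.92 log2 units (adjusted p 4.02e-05), the semaphorin Sema7a at 0.51 (0.0216) and the pantetheinase-family gene Vnn3 at 1.16 (0.0445), in the authors' deposited table. Of 15 surface markers used for mammary stem and progenitor cells, Ly6a and the receptor gene Kit (1.02, adjusted p 5.77e-17) were listed and higher in the authors' deposited table. Ly6a was chosen for its presence there. Among 24 interferon-induced surface proteins 1, Ccrl2, was listed. No member of the interferon receptor and JAK-STAT list (22 genes) was in the authors' deposited table, and Lbp (0.59), which hands LPS to its receptor complex, was the 1 listed of 22 genes for LPS sensing and NF-kB. Of the 6 ISGylation genes 1 was listed, Uba7 itself, the gene added in the UBE1L arm, 52.7-fold higher in the authors' deposited table. At most 4.04% of the tested genes were listed. How many genes of each list were tested is not known, so nothing is read from these counts.

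Markers of cell types could be read only where they were listed. None of 15 macrophage and leukocyte markers and none of 7 endothelial markers was in the authors' deposited table. Of 9 fibroblast markers, Col3a1 (0.82), Col1a1 (0.52) and Dcn (0.51) were higher there, and of 14 mammary epithelial markers the tight-junction gene Cldn4 (0.82) was, in the authors' deposited table. At most 4.04% of the tested genes were listed, and 83.8% of the listed genes were higher. How many of these markers were tested is not known, so nothing is read from the counts. The levels of unlisted markers are not known here, so the labelled cell type was not checked against them. The part of the fibroblast markers' rise in the Ly6 and Sectm1 values was not tested.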

How the data were processed

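Messenger RNA of 8 libraries in 4 groups of 2 was sequenced as stranded single reads of 50 bases, per the labels' protocols. Trimmomatic 0.36, Salmon 0.9.1 and edgeR are named in the submitters' processing notes without role or order; the build, annotation, filter and statistical model were not given in the sources used here. The log2 fold change and mean log2 CPM were used as deposited by the authors, with base 2 taken from edgeR's usual column names. The likelihood-ratio score, the p-value and the adjusted p-value were likewise used as deposited by the authors, and the p-value equals the chi-square tail (1 degree of freedom) of the score to a relative 6.60e-13. Depth per library is unknown from the table, so no counting interval is given.

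No test was run, because no values per library are in the table used. The approximate standard error is the absolute log2 fold divided by the square root of the likelihood ratio; intervals are 1.96 errors wide on each side. The header calls the adjusted p both Bonferroni and FDR. Its value equals p times 6413.48 over a whole-number rank, and that constant was rounded up to 6414 tests, a lower limit. A Bonferroni adjustment does not divide by rank, so the deposited adjusted p is not a Bonferroni value. The exact FDR method was not identified. Stretch search and rank recovery were checked on simulated data. Proteins were translated from GENCODE M21 coding sequences and aligned globally (biopython 1.88, BLOSUM62); Python 3.11.15, numpy 2.4.6, pandas 2.3.3 and scipy 1.17.1 were used. All 5 symbols had GENCODE transcripts. Members and gene lists were chosen with earlier results of these data known. Named genes are the members, listed members of the lists (at most 4 a list), the listed gene closest to each member in abundance and in fold, and genes that share stretches with a member or neighbour it. Of the 264 genes outside the members that share stretches with Ly6c2, each with at most 9, none is named for that reason; unlisted relatives, named to complete a family, were chosen after the table was seen.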

Additional observations from a re-analysis of the deposited data

How the results depend on the processing

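All 5 genes were counted as higher; 1 had a log2 fold of 1 or more, 2 passed Bonferroni over 6414 tests, 2 had 4 log2 CPM or more, and 1 was left after subtracting the median listed fold (0.66 log2 units, Uba7 left out). The count was 4 at an adjusted p under 0.01, 4 with under 20% shared 50-base stretches in all transcripts and 4 after subtracting the offset of 0.28 log2 units that balances the tails of the listed folds, where Ly6a fell to 0.46, under the limit of 0.50. All 5 folds stayed above 0 under both subtractions, and the lower counts follow from how the settings are built. Of all listed genes, 22.8% had an absolute log2 fold of at least 1, 68.3% an adjusted p under 0.01, and 40.2% passed Bonferroni. Shares of all listed genes at the other settings were not computed, so nothing is read from these counts. The limit of 20% left 3 genes with protein-coding transcripts alone and 2 with 31-base stretches, both settings chosen for this count after seeing the data. With 31-base stretches the shared part was 31.9% for Ly6a, 46.8% for Ly6c1, 23.7% for Ly6c2 and 0 for both Sectm1 genes, and with protein-coding transcripts alone it was 25.6% for Ly6c1 and 31.2% for Ly6c2. With 1 mismatch allowed, 5 of the 5 promoter windows held the interferon element core (65.5% of all windows) 4 the gamma-activated site (71.4%) and 0 the NF-kB core (22.3%). The median transcript length, also added later, raised each abundance per kilobase, by 1.11 times (Ly6a) to 2.13 times (Sectm1b), and the order of the 5 genes was the same. Giving both genes of a pair the larger error widened each paralog interval, and each still held 0. No paired analysis was possible because single libraries have no values in the table used; so fits with other scaling, filters or left-out replicates were not run. The 2 libraries per group and the low abundance limit the weakly expressed Ly6c2 most.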
